A study of Mus musculus with 8 samples.

Results

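The GIMAP genes encode a family of small GTP-binding proteins that are made mainly in lymphocytes and sit side by side in the genome. The members described here are the 8 protein-coding Gimap genes of the mouse, Gimap1, Gimap3, Gimap4, Gimap5, Gimap6, Gimap7, Gimap8 and Gimap9, chosen by symbol and not by any measured value, out of 48321 gene symbols in the count files. All 8 passed the filter on low counts, in every group and not only where they were high (the lowest value was 464 reads, for Gimap8 in a spleen KO library), and were among the 12595 genes tested. They were measured by RNA-seq in natural killer (NK) cells, lymphocytes of the innate immune system, which were sorted as CD45+ TCRb- NK1.1+ cells straight from lung or spleen of mice on a C57/Bl6 background. There were 4 groups of 2 libraries each: lung Wt, lung KO, spleen Wt and spleen KO. The genotype labels read Wt and KO. According to the study's methods, the KO mice were Ccl5 ΔPE/ΔPE, homozygous for a deletion of the proximal enhancer of the chemokine gene Ccl5 made with a pair of guide RNAs, and each mouse line was bred and housed separately, so genotype and housing cannot be told apart. The study used mice of both sexes at ages of weeks to months, and neither age nor sex is given for a single library. The labels list no agent for either genotype. It is not stated whether both libraries of a group were made from different animals, so the p-values measure only the spread between these libraries. Nor is it stated whether lung and spleen libraries came from the same animals, and the tests treat them as independent.

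As background, GIMAP proteins carry a GTP-binding domain close in fold to that of septins and the chloroplast import receptors, and most are held at the surface of internal membranes, where they can form dimers and longer assemblies. They are best known for keeping resting lymphocytes alive: mice that lack Gimap5, a protein of lysosomal and endosomal membranes, lose peripheral T cells and NK cells, and loss of Gimap1, a Golgi protein, depletes mature B and T cells. Gimap3 is the closest relative of Gimap5, Gimap6 binds the ATG8-family protein GABARAPL2 and is recruited to autophagosomes, Gimap4 promotes the death of T cells once apoptosis has begun, Gimap7 forms dimers that stimulate GTP hydrolysis, and Gimap8 is the long member with several GTP-binding domains in a row.

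The 8 genes occupied 123618 bp of mouse chromosome 6 (chr6:48647234-48770851, GRCm38, GENCODE M21), in the order Gimap8, Gimap9, Gimap4, Gimap6, Gimap7, Gimap1, Gimap5 and Gimap3, with Gimap6 and Gimap3 on the minus strand. Ccl5 and its deleted enhancer lie on another chromosome. All members carry a P-loop, the glycine-rich stretch that holds the phosphates of the bound nucleotide and that other GTPases have too, and its coding sequence is shown for each member with 18 bases on either side. The capitals mark the 8 P-loop codons. The bases come from the GENCODE transcript with the longest coding sequence, are written 5′ to 3′ on the coding strand and lie within 1 coding exon in each gene.
Gimap1 (chr6:48742534-48742593, plus strand): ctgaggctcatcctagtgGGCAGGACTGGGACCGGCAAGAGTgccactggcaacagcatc
Gimap3 (chr6:48765869-48765928, minus strand): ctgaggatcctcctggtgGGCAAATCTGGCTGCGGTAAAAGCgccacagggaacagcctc
Gimap4 (chr6:48690403-48690462, plus strand): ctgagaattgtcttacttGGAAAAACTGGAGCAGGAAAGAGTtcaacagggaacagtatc
Gimap5 (chr6:48752576-48752635, plus strand): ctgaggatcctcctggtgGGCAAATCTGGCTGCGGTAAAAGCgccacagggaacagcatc
Gimap6 (chr6:48702732-48702791, minus strand): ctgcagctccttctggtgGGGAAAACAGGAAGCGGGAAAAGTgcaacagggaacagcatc
Gimap7 (chr6:48723506-48723565, plus strand): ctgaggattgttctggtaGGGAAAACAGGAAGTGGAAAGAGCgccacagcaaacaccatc
Gimap8 (chr6:48650238-48650297, plus strand): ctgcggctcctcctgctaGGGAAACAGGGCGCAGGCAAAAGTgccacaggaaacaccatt
Gimap9 (chr6:48677505-48677564, plus strand): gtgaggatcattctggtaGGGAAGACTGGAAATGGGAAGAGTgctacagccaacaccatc
A search of the translated sequences found 1 such motif in every member except Gimap8, which had 3, the first of which is shown. The coding sequence of Gimap8 was 2064 bases long, against 873 to 984 bases in the others. Gimap3 and Gimap5 were the most alike pair, with 90.7% identical bases over 895 aligned coding positions, and their P-loop codons above are the same. The next most alike pair was Gimap7 and Gimap9, at 68.8% over 852 positions.

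The likeness of Gimap3 and Gimap5 bears on the counting, because the reads were 50 bases long. The longest stretch shared by both coding sequences was 140 bases, at chr6:48765681-48765820 on the minus strand in Gimap3 and at chr6:48752684-48752823 on the plus strand in Gimap5, and a read that lies inside it cannot be placed in either gene.
Gimap3 and Gimap5: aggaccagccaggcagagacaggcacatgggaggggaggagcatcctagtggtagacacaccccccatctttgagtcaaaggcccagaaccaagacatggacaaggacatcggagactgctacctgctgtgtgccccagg
Of all 50-base words in the Gimap3 transcripts, 190 (7.52%) also occurred in Gimap5, where they made up 4.53%. No other pair of members shared such a word, so the other 6 genes share no exact 50-base read with each other.

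Every library held the members at levels far above the limit of detection. The 8 libraries had between 3132963 and 26482366 reads on genes, and 3 reads, taken as the limit for a count of 0, corresponded to between 0.113 and 0.958 counts per 1000000 reads (CPM). The 8 genes together took between 0.689% and 0.91% of the reads on genes. Ccl5 itself, the check of the genotype labels, stood at 19518 and 18350 CPM in the lung Wt libraries and at 2992 and 3195 CPM in the lung KO libraries. In spleen it stood at 16679 and 15664 CPM in Wt and at 2676 and 2432 CPM in KO. Its KO libraries lay far below the Wt libraries in both organs, with log2 fold changes of -2.61 (SE 0.0423) in lung and -2.67 (SE 0.0426) in spleen. The NK markers (9 of 9 detected, among them Ncr1 and Klrb1c) summed to between 37000 and 52700 CPM. CPM values were scaled by edgeR's trimmed mean of M-values (TMM), with factors of 0.954 to 1.03.

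Gimap4 and Gimap6 dominated the family and Gimap5 and Gimap8 were its least abundant transcripts. Levels of different genes were compared per length of exon, as CPM divided by the exon length in kilobases (RPKM). Gimap4, the gene linked to T cell death, was highest in every group, with group means from 999.7 RPKM in lung Wt to 1503 RPKM in spleen KO. Gimap6, the autophagosome protein, was the second in every group, between 594.9 RPKM in lung KO and 895.9 RPKM in spleen KO. Gimap5, the best studied survival factor, was the lowest in 3 groups, at 33.36 RPKM in lung KO, 37.16 RPKM in lung Wt and 37.34 RPKM in spleen Wt. Only in spleen KO was Gimap8, at 40.0 RPKM, below Gimap5, at 41.77 RPKM.

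The middle of the order per length of exon differed between groups. Gimap9 stood above Gimap3 in lung Wt (540.9 against 345.9 RPKM) and in spleen KO (567.6 against 387.5 RPKM). Gimap3 stood above Gimap9 in lung KO (442.3 against 413.7 RPKM) and in spleen Wt (465.1 against 421.2 RPKM). Gimap7 and Gimap1 changed places in the same groups: Gimap7 was higher in lung Wt (181.4 against 170.9 RPKM) and spleen KO (221 against 175.5 RPKM), and Gimap1 was higher in lung KO (179 against 125.9 RPKM) and spleen Wt (210.6 against 164.6 RPKM). In no group did the libraries of 2 neighbours in the order overlap, although with 2 libraries per gene this is a description of the spread. Without the length correction, Gimap6 stood above Gimap4 in every group, and the middle of the order was the same in every group. Gimap3 then stood above Gimap9 also in lung Wt (891.4 against 888.1 CPM) and spleen KO (998.5 against 931.9 CPM). Gimap1 stood above Gimap7 also in lung Wt (525.1 against 421.8 CPM) and spleen KO (539.2 against 513.9 CPM). The changes of place thus depend on the length correction.

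**Figure D1:**
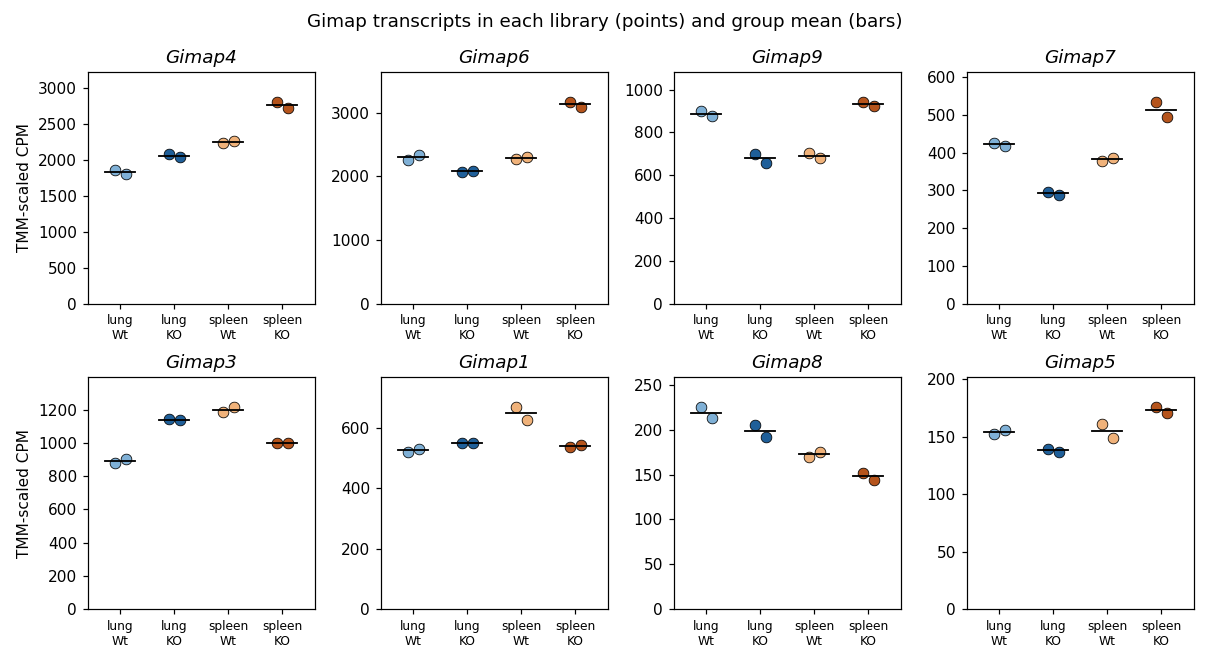
TMM-scaled CPM of the 8 Gimap genes, one panel per gene, with a point for each library and a bar for the mean of the 2 libraries of a group. Gimap6, Gimap9 and Gimap7 are lower in lung KO than in lung Wt and higher in spleen KO than in spleen Wt, while Gimap3 shows the opposite order.

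In lung NK cells, Gimap7 and Gimap9 fell in the KO, Gimap3 rose, and the other members moved by less. The comparison asks how loss of the enhancer, and with it most of the Ccl5 transcript, changes NK cells of the lung. Gimap7 was at 426 and 418 CPM in the Wt libraries and at 296 and 289 CPM in the KO libraries, a log2 fold change of -0.53 (SE 0.0448, edgeR quasi-likelihood F-test, Benjamini-Hochberg adjusted p across all tested genes = 1.4e-12). Gimap9 was at 901 and 876 CPM in Wt and 699.6 and 659 CPM in KO (log2 fold change -0.39, SE 0.0387, same test, edgeR adjusted p = 8.1e-11). In both genes each KO library lay below each Wt library, and the gap was larger than the difference between libraries of a group. The same lack of overlap was seen in 76% of all tested genes. Gimap3 went the other way, from 879.8 and 903 CPM in Wt to 1142 and 1138 CPM in KO (log2 fold change 0.36, SE 0.036, edgeR adjusted p = 1.4e-10). Gimap4 also rose, by 0.16 on the log2 scale (SE 0.0345, edgeR adjusted p = 0.00012), from 1863 and 1810.2 to 2077 and 2039.8 CPM.

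The other 3 members called lower in lung KO changed little. Gimap6 was at 2264 and 2340.5 CPM in Wt and 2069 and 2090.3 CPM in KO. Gimap8 was at 225 and 213 CPM in Wt against 206 and 192 CPM in KO, and Gimap5 at 152 and 156 CPM against 139.8 and 137 CPM. The groups did not overlap in any of the 3 genes, and each had a log2 fold change of -0.15, with SE 0.0341 for Gimap6 (edgeR adjusted p = 0.00043), 0.0517 for Gimap8 and 0.0568 for Gimap5. The calls of Gimap5 and Gimap8, the least abundant members, depended on single libraries. Gimap5 (adjusted p = 0.021 in edgeR's test) lost its call with DESeq2 and when any of the 4 lung libraries was left out, at log2 fold changes of -0.18 without lung Wt replicate 1, -0.14 without lung Wt replicate 2, -0.16 without lung KO replicate 1 and -0.14 without lung KO replicate 2. Gimap8 (adjusted p = 0.012 in edgeR's test) lost it with DESeq2, without lung Wt replicate 1 (-0.11) and without lung KO replicate 2 (-0.10). Gimap1 was not called, at 521 and 529 CPM in Wt and 551 and 549 CPM in KO (log2 fold change 0.07, 95% confidence interval -0.01 to 0.15, edgeR adjusted p = 0.15).

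In all, 7 of 8 members were called in lung, 2 higher and 5 lower, where 55.6% of all tested genes were called, 29.2% higher and 26.4% lower. No member reached a 1.5-fold difference, which 26.7% of tested genes did. The median log2 fold change of the members was -0.149 beside 0.0203 over all tested genes, and their median size of change, 0.159, was below the 0.357 of all tested genes. Gimap7 had the largest change among the members, and 65.7% of tested genes changed by less.

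In spleen NK cells, Gimap6, Gimap9 and Gimap7 rose in the KO and Gimap3 fell, as did Gimap1 unless the trend with GC content was removed. Gimap6 was at 2276 and 2304 CPM in the Wt libraries and 3168 and 3097 CPM in the KO libraries (log2 fold change 0.45, SE 0.0338, edgeR quasi-likelihood F-test, Benjamini-Hochberg adjusted p = 8.7e-14). Gimap9 was at 702 and 681 CPM in Wt and 941 and 922 CPM in KO (log2 fold change 0.43, SE 0.0383, edgeR adjusted p = 6.6e-12). Gimap7 was at 379 and 387 CPM in Wt and 534 and 494 CPM in KO (log2 fold change 0.40, SE 0.0418, edgeR adjusted p = 2.2e-10). For these 3 genes every spleen KO library lay above every spleen Wt library. Gimap4 rose by 0.29 on the log2 scale (SE 0.034, edgeR adjusted p = 4.1e-09), from 2242 and 2269.9 CPM in Wt to 2805 and 2718 CPM in KO. Gimap5 was called higher at 176 and 171 CPM in KO against 161 and 149 CPM in Wt (log2 fold change 0.17, SE 0.0515, edgeR adjusted p = 0.0063). That call did not hold with DESeq2, without spleen Wt replicate 2 (0.10) or without spleen KO replicate 2 (0.19).

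Gimap3, Gimap1 and Gimap8 were called lower in spleen KO. Gimap3 was at 1184 and 1213 CPM in Wt and 996 and 1001 CPM in KO (log2 fold change -0.26, SE 0.0354, edgeR adjusted p = 6.3e-08). Gimap1 was at 667 and 627 CPM in Wt and 535 and 543 CPM in KO (log2 fold change -0.25, SE 0.039, edgeR adjusted p = 7.7e-07), and lost its call with the trend with GC content removed (-0.04, edgeR adjusted p = 0.41). Gimap8 was at 169.6 and 176 CPM in Wt and 151 and 145 CPM in KO (log2 fold change -0.25, SE 0.0523, edgeR adjusted p = 0.00012), and its call was lost without spleen KO replicate 2, the most deeply sequenced library, at -0.19. The groups did not overlap in any of the 3 genes, as in 73.8% of all tested genes. All 8 members were called in spleen, 5 higher and 3 lower, where 57.1% of tested genes were called, 28.2% higher and 28.9% lower. As in lung, no member reached 1.5-fold, against 23.8% of tested genes. The median log2 fold change of the members was 0.227, beside a median over all tested genes that rounds to 0, and the median size of change was 0.277 for the members and 0.33 for all genes.

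**Figure D2:**
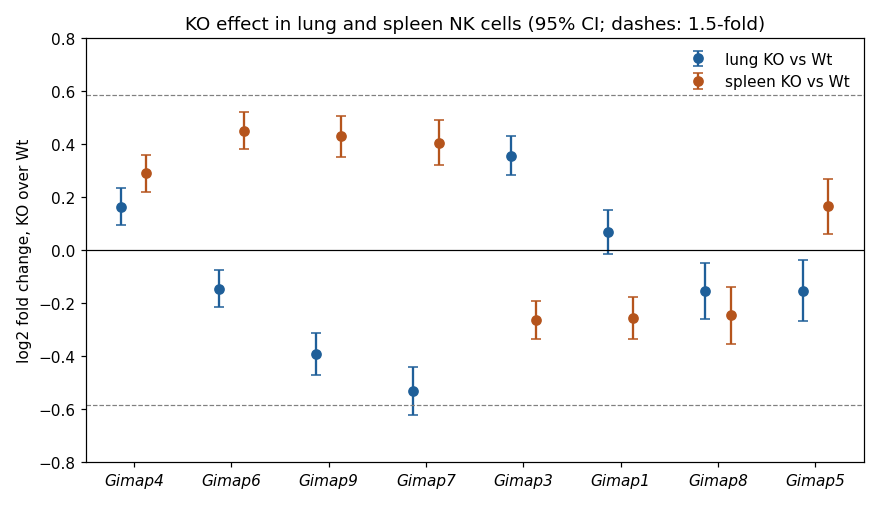
Log2 fold change of KO over Wt for each Gimap gene in lung (blue) and spleen (orange) NK cells, with 95% confidence intervals from edgeR's quasi-likelihood fit. The dashed lines mark a 1.5-fold difference (0.585 on the log2 scale), which no member reaches. Gimap6, Gimap9, Gimap7 and Gimap5 lie below 0 in lung and above 0 in spleen, and Gimap3 lies above 0 in lung and below 0 in spleen.

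The KO effect on the family differed between the organs. The difference itself was tested as an interaction, the lung log2 fold change minus the spleen one. It was largest for Gimap7, at -0.94 (SE 0.0612, edgeR adjusted p = 6.3e-16), and for Gimap9, at -0.82 (SE 0.0545, edgeR adjusted p = 9.2e-16). Gimap6 followed at -0.60 (SE 0.048, edgeR adjusted p = 2e-13). Gimap3 had the opposite sign, at 0.62 (SE 0.0505, edgeR adjusted p = 2.7e-13). These 4 genes were also the ones that passed 1.5-fold on this scale. Gimap6 fell short of it with library totals (-0.43). With the trend with GC content removed, Gimap6 (-0.57) and Gimap3 (0.49) both fell short. Gimap6 also did without lung Wt replicate 2 (-0.57), lung KO replicate 1 (-0.58), spleen Wt replicate 1 (-0.58) or spleen KO replicate 1 (-0.58). The 2 most alike genes of the family, Gimap3 and Gimap5, had opposite signs in each organ, with the lost calls of Gimap5 given above, while the next most alike pair, Gimap7 and Gimap9, moved in the same direction in each.

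The remaining interactions were smaller. Gimap1 was at 0.32 (SE 0.0561, edgeR adjusted p = 5.2e-06), Gimap5 at -0.32 (SE 0.0767, edgeR adjusted p = 0.00048) and Gimap4 at -0.13 (SE 0.0485, edgeR adjusted p = 0.023). Gimap8 was not called, at 0.09 (95% confidence interval -0.06 to 0.24, edgeR adjusted p = 0.28). The Gimap4 call was lost when lung Wt replicate 1 (-0.12), lung KO replicate 1 (-0.13), lung KO replicate 2 (-0.11), spleen Wt replicate 1 (-0.11) or spleen KO replicate 1 (-0.10) was left out. Its sign turned with library totals (0.04) and with the trend with GC content removed (0.07). In the latter fit Gimap1 turned to -0.15 and Gimap8 was called at 0.28, and with library totals Gimap5 lost its call (-0.16) and Gimap8 gained one (0.25). Altogether 7 of 8 members were called, 2 higher and 5 lower, beside 61.6% of tested genes, with 32.5% higher and 29% lower, and the 4 at 1.5-fold or more stand beside 43.3% of tested genes. The members' median size was 0.459 and that of all tested genes 0.596. Interactions of this size were common across the transcriptome.

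Ratios between members within a library do not depend on how libraries are scaled, and they showed the same exchange. The ratio of Gimap7 to Gimap3 reads was 0.484 and 0.463 in lung Wt and 0.259 and 0.254 in lung KO. In spleen it was 0.320 and 0.319 in Wt and 0.536 and 0.493 in KO. The KO libraries were thus below the Wt libraries in lung and above them in spleen. The ratio of Gimap9 to Gimap3 in lung was 1.02 and 0.970 in Wt against 0.613 and 0.579 in KO, and the same ratio in spleen was 0.593 and 0.561 in Wt and 0.945 and 0.922 in KO. The ratio of Gimap6 to Gimap3 in lung was 2.57 and 2.59 in Wt against 1.81 and 1.84 in KO, and the same ratio in spleen was 1.92 and 1.90 in Wt and 3.18 and 3.09 in KO. For all 3 ratios the lung KO and spleen Wt libraries lay below the lung Wt and spleen KO libraries. The ratio of Gimap9 to Gimap7 moved less. It was 1.85 and 1.76 in spleen Wt against 1.76 and 1.87 in spleen KO, where the libraries overlapped, and 2.12 and 2.095 in lung Wt and 2.36 and 2.28 in lung KO, where the KO libraries were higher.

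**Figure D3:**
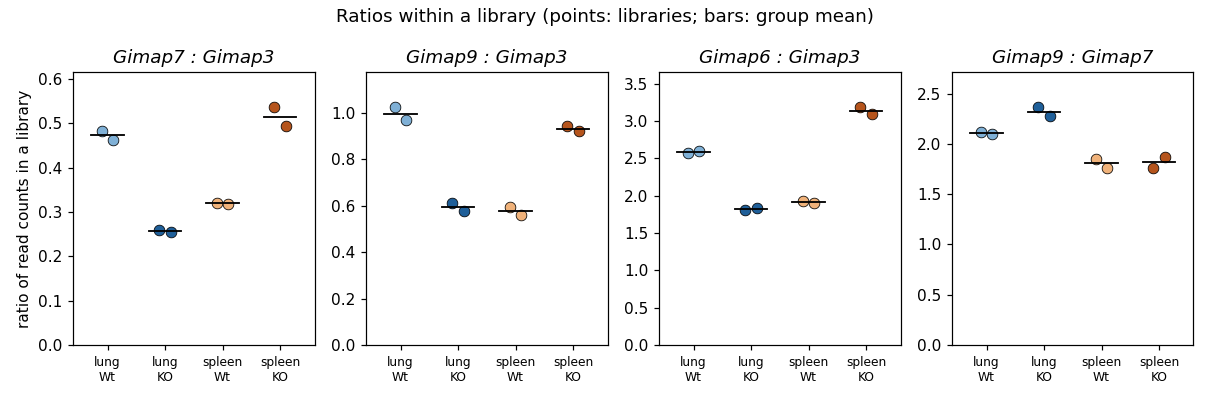
Ratio of the read counts of 2 Gimap genes within each library (points) with the mean of each group (bars). The ratios of Gimap7, Gimap9 and Gimap6 to Gimap3 are lower in lung KO than in lung Wt and higher in spleen KO than in spleen Wt, and the ratio of Gimap9 to Gimap7 lies between 1.76 and 2.36 in all libraries.

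By TMM-scaled CPM, the summed level of the family changed in spleen and hardly in lung. In lung the 8 genes together came to 7232 and 7245 CPM in the Wt libraries and 7179.9 and 7095 CPM in the KO libraries. In spleen they came to 7781 and 7806 CPM in Wt and 9306 and 9091 CPM in KO. In spleen the KO sums were above the Wt sums, with the largest increases in Gimap6 and Gimap4. In lung the rise of Gimap3 and Gimap4 and the decline of Gimap7, Gimap9 and Gimap6 nearly cancelled on this scale. The lung result depends on the scaling. As a share of all reads on genes, the family made up 0.689% and 0.700% in lung Wt and 0.733% and 0.725% in lung KO. In spleen that share was 0.802% and 0.805% in Wt and 0.910% and 0.896% in KO. As a share of the family's own reads, Gimap3 made up 12.2 and 12.5% in lung Wt and 15.9 and 16.0% in lung KO, and 15.2 and 15.5% in spleen Wt against 10.7 and 11.01% in spleen KO. In bulk samples, fewer cells that express a gene and less RNA per cell cannot be told apart.

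Base composition moved with the KO effect across all genes, and Gimap1, the most GC-rich member, was the one whose values changed most when that trend was removed. Over the 12223 tested genes with a known GC content, the log2 fold change correlated with GC content at a Spearman coefficient of 0.297 in lung and -0.279 in spleen, as a description across genes, which share the libraries. The exons of the members ranged from 43.19% GC in Gimap9 to 55.18% in Gimap1. With each library's trend with GC content removed, Gimap1 turned from 0.07 to -0.18 in lung (edgeR adjusted p = 5.6e-05) and from -0.25 to -0.04 in spleen (edgeR adjusted p = 0.41), and Gimap8 lost its call in lung (-0.07). Gimap7 (48.74% GC) was at -0.55 in lung and 0.41 in spleen in that fit, and Gimap3 (50.67% GC) at 0.27 and -0.22. Gimap9 was at -0.30 and 0.32 and Gimap6 (47.32% GC) at -0.13 and 0.44. These 4 genes kept their direction and call in both organs in this fit and in DESeq2. Scaling by library totals in place of TMM took the lung calls from Gimap6 (-0.05), Gimap5 (-0.06) and Gimap8 (-0.06), gave one to Gimap1 (0.16), and took the spleen call from Gimap5 (0.10).

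**Figure D4:**
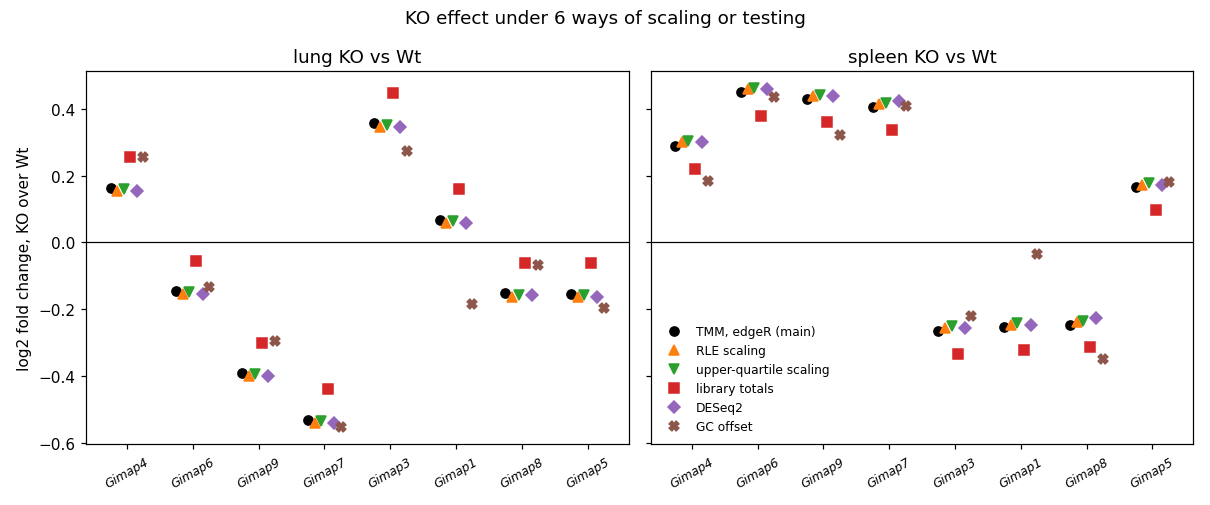
Log2 fold change of KO over Wt for each Gimap gene in lung (left) and spleen (right) under 6 ways of scaling or testing, the main TMM fit in black. Every member except Gimap1 keeps its sign in both panels, while Gimap1 crosses 0 in lung in the fit with the GC trend removed (-0.18 against 0.07).

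Between organs, Wt lung NK cells held more Gimap9, Gimap8 and Gimap7 and less Gimap3, Gimap4 and Gimap1 than Wt spleen NK cells. These comparisons use the same Wt and KO libraries as the comparisons above. The log2 difference of lung over spleen in Wt was 0.37 for Gimap9 (SE 0.0388), 0.35 for Gimap8 (SE 0.0528) and 0.14 for Gimap7 (SE 0.0435). It was -0.43 for Gimap3 (SE 0.036) and -0.30 for both Gimap1 (SE 0.04) and Gimap4 (SE 0.0345). Gimap5 and Gimap6 were not called, at 0.00 (95% confidence interval -0.11 to 0.12) and 0.01 (-0.06 to 0.08). So 6 of 8 members were called, 3 higher and 3 lower, none at 1.5-fold, where 57% of tested genes were called, 27.7% higher and 29.3% lower, and 28.5% passed 1.5-fold. Scaling by library totals took the call from Gimap7 (0.03) and placed Gimap5 and Gimap6 at -0.10 each, the latter with a call. Gimap1 shrank to -0.08 with the GC trend removed and kept its call only at the limit (edgeR adjusted p = 0.05 after rounding).

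In KO mice the organ difference was larger for most members and had another sign for some. Gimap7 was at -0.80 (SE 0.043), Gimap6 at -0.59 (SE 0.0339), Gimap9 at -0.46 (SE 0.0382), Gimap4 at -0.42 (SE 0.0341) and Gimap5 at -0.32 (SE 0.0523), all lower in lung. Gimap8 was at 0.44 (SE 0.0512) and Gimap3 at 0.19 (SE 0.0354), both higher in lung. Gimap1 was not called at 0.03 (95% confidence interval -0.05 to 0.10). Here 7 of 8 members were called, 2 higher and 5 lower, beside 65.6% of tested genes, with 33.9% higher and 31.7% lower. Gimap7 and Gimap6 passed 1.5-fold, as 33.2% of tested genes did. Gimap6 sits at that limit and fell just short of it without lung Wt replicate 2, lung KO replicate 1 or spleen KO replicate 1 (-0.58, -0.57 and -0.58). Gimap8 was the only member called higher in lung in both genotypes. With the GC trend described above removed, Gimap1 was at -0.23 in KO mice, with a call.

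The promoters are shown for the 3 genes whose opposite movement the results turn on, Gimap7 and Gimap9, which moved together, and Gimap3, which moved against them. Each window holds 250 bases before and 50 bases after the annotated start, from RefSeq (GRCm38.p6), written 5′ to 3′ on the gene's strand. All 8 members matched the RefSeq table, with 9 windows because Gimap8 has a pair of starts. Capitals mark matches on either strand to TGTGGT, the core of RUNX sites, or to ACAGGAAG, an ETS motif.
Gimap7 promoter (chr6:48718371-48718670, plus strand): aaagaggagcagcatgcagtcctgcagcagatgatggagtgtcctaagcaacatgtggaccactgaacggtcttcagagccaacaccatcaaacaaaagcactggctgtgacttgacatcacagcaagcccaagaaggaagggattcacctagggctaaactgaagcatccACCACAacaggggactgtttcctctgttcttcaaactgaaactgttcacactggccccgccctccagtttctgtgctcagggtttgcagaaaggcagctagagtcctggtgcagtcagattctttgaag
Gimap9 promoter (chr6:48675885-48676184, plus strand): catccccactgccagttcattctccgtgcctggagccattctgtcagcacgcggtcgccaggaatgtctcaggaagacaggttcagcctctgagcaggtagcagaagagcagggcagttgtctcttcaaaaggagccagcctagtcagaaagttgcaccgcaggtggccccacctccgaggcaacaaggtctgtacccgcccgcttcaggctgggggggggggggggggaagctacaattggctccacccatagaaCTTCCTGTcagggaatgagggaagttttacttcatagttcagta
Gimap3 promoter (chr6:48770802-48771101, minus strand): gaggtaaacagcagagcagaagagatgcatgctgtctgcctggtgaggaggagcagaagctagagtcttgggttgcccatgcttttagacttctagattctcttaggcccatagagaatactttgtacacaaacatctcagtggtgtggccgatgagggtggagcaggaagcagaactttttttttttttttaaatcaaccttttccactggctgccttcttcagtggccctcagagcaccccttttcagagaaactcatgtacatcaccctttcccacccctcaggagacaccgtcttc
The RUNX core occurred in 3 of the 9 windows, those of Gimap7 (at -79 from the start), Gimap4 (-145) and Gimap1 (-95), in each case on the minus strand, and in 16.8% of the 32851 windows of all genes. The longer form TGTGGTT, which contains the core, was found in none of the 9 and in 5.27% of all. The ETS motif occurred in the windows of Gimap9 (6 bases past the start) and Gimap5 (-47), against 3.58% of all windows. The KLF motif GGGTGTG occurred in none, against 7.95% of all. These matches describe the letters of the windows and not the binding of a factor.

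Genes of both directions stood among the genes around the cluster, as within it. Within 250 kb of the outermost members, 48 genes were annotated, 46 were in the count files, 27 had a read and 15 other than the members were tested. In lung KO, 3 of the 15 were called higher (Lrrc61 at 0.43, Repin1 at 1.90 and Zfp775 at 2.19) and 2 lower (Zfp862-ps at -1.62 and Gimap1os at -0.46), beside 29.2% and 26.4% of all tested genes. In spleen KO, 3 were called higher (Gm44226 at 1.22, 4833403J16Rik at 0.85 and Gimap1os at 0.17) and 4 lower (Zfp775 at -2.44, Krba1 at -1.36, Lrrc61 at -0.85 and Rarres2 at -0.44), beside 28.2% and 28.9% of all tested genes. Zfp775, which lies between Repin1 and Gimap8, had only 3 to 75 reads in a library. Tmem176a and Tmem176b, on the far side of the cluster, were not called in either organ, nor were Zfp467, Gm7887, AI854703 and Gm28053, a readthrough transcript that overlaps exons of Gimap7, Gimap1 and Gimap5.

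**Figure D5:**
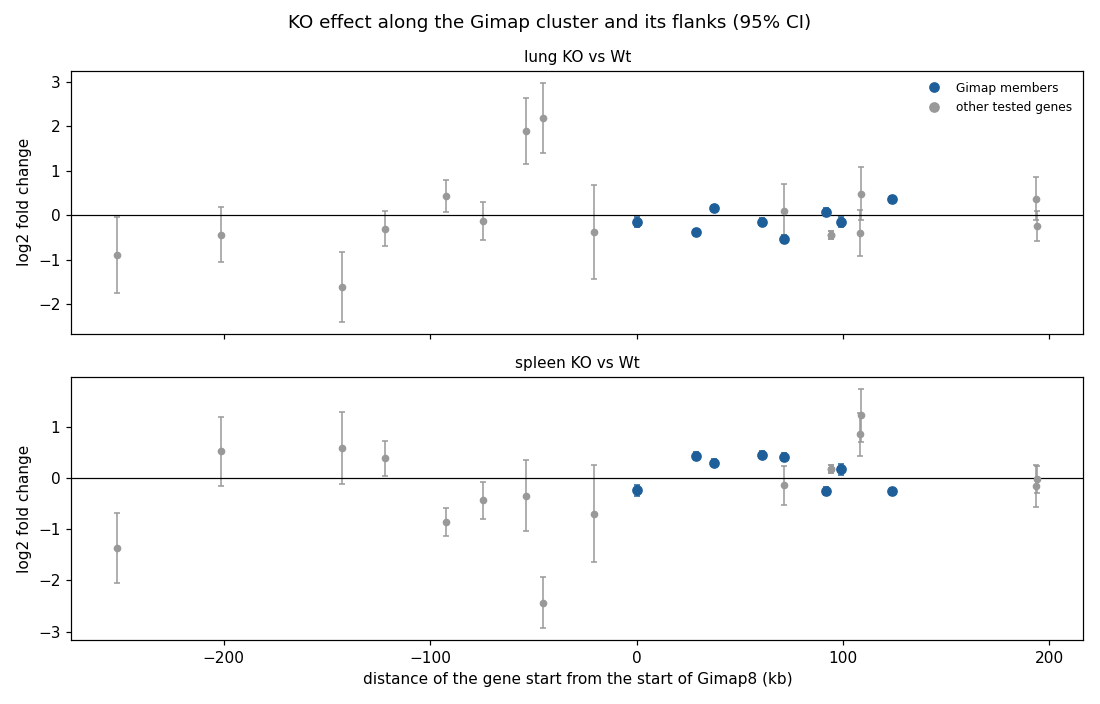
Log2 fold change of KO over Wt in lung (top) and spleen (bottom) against the distance in kb of each gene's start from the start of Gimap8, with 95% confidence intervals. Members (blue) stay between -0.53 and 0.45 in both panels, while several of the sparsely counted flanking genes (grey) lie further out.

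Gimap1os, a transcript on the strand opposite to Gimap1, moved in the same direction as Gimap7 in both organs. Its level was 418 and 403 CPM in lung Wt and 299 and 301 CPM in lung KO (log2 fold change -0.46, SE 0.0433, edgeR adjusted p = 2.9e-11). In spleen it was 376 and 376 CPM in Wt and 411 and 428 CPM in KO (log2 fold change 0.17, SE 0.0409, edgeR adjusted p = 0.00056). The ratio of Gimap1os to Gimap1 reads was 0.802 and 0.761 in lung Wt and 0.543 and 0.547 in lung KO, while in spleen it was 0.563 and 0.599 in Wt against 0.767 and 0.789 in KO. The exons of the 2 genes overlap, and 1011 (32.4%) of the 50-base words of Gimap1 are the reverse complement of words in Gimap1os. Whether the counting used strand is not given in the sources used here. Of the uniquely aligned reads, between 44.26% (lung Wt replicate 2) and 46.59% (spleen Wt replicate 2) were counted on a gene. Why the rest were not, and whether strand had a part in it, was not tested. Without strand, reads in the overlap cannot be assigned to either gene, so the values of Gimap1 and Gimap1os are uncertain.

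The proteins that GIMAP members are known to meet were described by lists chosen with earlier results of these data known, and no test was made of a list. Their counts stand beside 29.2% of all tested genes called higher and 26.4% lower in lung, and 28.2% higher and 28.9% lower in spleen. Among 7 partners and survival proteins, 3 were called higher and 2 lower in lung, and 3 higher and 1 lower in spleen, with medians of -0.000698 and 0.0969 (all tested genes 0.0203 in lung). Bcl2l1, which encodes the survival protein BCL-XL, stood at 0.78 in lung and -0.90 in spleen. Mcl1, another survival protein of the BCL-2 family, was at -0.61 and 0.35, and Gsk3b, a kinase reported to be held in check by Gimap5, at -0.54 and 0.23. Gabarapl2, the partner of Gimap6, rose by 0.51 in spleen (SE 0.0771, edgeR adjusted p = 6.9e-07) and was not called in lung, at -0.09 (SE 0.0914).

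Of 14 genes of ATG8 conjugation and autophagy, 5 were called higher and 3 lower in lung and 6 higher and 5 lower in spleen, with medians of -0.0434 and 0.117. Map1lc3b, which encodes the ATG8 protein LC3B, was at -0.38 in lung and 0.40 in spleen. Sqstm1, the cargo receptor p62, was at 0.44 and -0.23, and Atg5, part of the conjugation machinery, at -0.40 and 0.23. Of 12 genes of lymphocyte quiescence and trafficking, 7 were called higher (29.2% of all tested genes) and 2 lower (26.4%) in lung and 6 higher (28.2%) and 5 lower (28.9%) in spleen, with medians of 0.207 and 0.012. Klf2, a transcription factor of resting lymphocytes, was at 1.21 in lung and -1.37 in spleen. Il7r was at -1.38 and -0.39, S1pr1 at 0.51 and 0.81 and Tob1 at 1.02 and -0.78. Of 14 listed interferon-inducible GTPases, another group of immune GTPases, 13 were in the files and tested, and 2 were higher and 5 lower in lung and 7 higher and 2 lower in spleen, with medians of -0.07 and 0.127. Gbp7 was at -0.49 and 0.17, Gbp8 at -0.57 and 0.49, Irgm2 at 1.17 and -0.40, and Gbp3 at 0.13 (not called in lung) and 0.30.

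Markers of NK cells and of other cells moved with some of these groups, and their part in the results was not tested. The summed NK markers were 51200 to 52700 CPM in lung Wt and 40500 to 40900 CPM in lung KO. In spleen they were 37000 to 37500 CPM in Wt and 48200 to 50500 CPM in KO. The sum was thus lower in lung KO and higher in spleen KO, as Gimap7, Gimap9 and Gimap6 were. Ncr1, Klrb1c, Klrk1, Gzma, Nkg7 and Klre1 moved as the sum did. Tbx21 went the other way, at 216 to 221 CPM in lung Wt and 478 to 480 CPM in lung KO. Its spleen values were 331 to 341 CPM in Wt and 147 to 150 CPM in KO. Prf1 also went the other way, at 1460 to 1560 CPM in lung Wt and 2480 to 2550 CPM in lung KO. In spleen Prf1 was at 1300 to 1320 CPM in Wt and 938 to 939 CPM in KO. Eomes overlapped in lung and rose in spleen KO. T cells, which also express Gimap genes, were to be excluded by the TCRb- gate, and the 9 T cell markers summed to 167 to 172 CPM in lung Wt, 130 to 146 CPM in lung KO, 290 CPM in both spleen Wt libraries and 300 to 305 CPM in spleen KO. Cd28 had the highest level of these markers in each group (90.9 to 169 CPM). Cd3e was at 32 to 32.5 CPM in spleen Wt and 7.51 to 11.1 CPM in spleen KO. Cd3d was at 59.2 to 62.3 CPM in spleen Wt and 64.4 to 72.1 CPM in spleen KO. Cd3g was at 60.9 to 61.4 CPM in spleen Wt and 55.3 to 57.5 CPM in spleen KO. In lung, Cd3d was at 16.2 to 17.4 CPM in Wt and 14.1 to 15.8 CPM in KO. Cd3g in lung was at 19.8 to 22.5 CPM in Wt and 15.8 to 17.8 CPM in KO. Of the T cell markers, Cd4 was at 0 in both lung Wt libraries, Cd8a and Cd6 in both lung KO libraries, Cd8b1 in all 4 spleen libraries, and Cd8a and Cd5 in both spleen KO libraries. B cell markers (7 genes) summed to 6.48 to 9.66 CPM in lung and 44.1 to 49.7 CPM in spleen. Endothelial markers (7 genes, mostly Pecam1) summed to 77.5 to 84.7 CPM in lung Wt, 107 to 108 CPM in lung KO and 65.9 to 75.8 CPM in spleen, where 5 of the 7 were at 0. Pecam1 itself was at 57.5 to 60.7 CPM in lung Wt, 78.2 to 80.2 CPM in lung KO and 64.9 to 74.9 CPM in spleen Wt. Cldn5 and Egfl7 were also higher in lung KO. Cdh5 was lower there, at 4.71 to 7.75 CPM against 8.55 to 9.45 CPM in lung Wt, and Kdr, Emcn and Tie1 overlapped. Epithelial markers (5 genes) summed to 240 to 241 CPM in lung Wt, 316 to 350 CPM in lung KO and at most 0.651 CPM in spleen. Sftpc, the surfactant gene of alveolar cells, was at 152 to 156 CPM in lung Wt and 251 to 282 CPM in lung KO. Sftpb rose as well, from 0.518 to 1.37 CPM in lung Wt to 3.4 to 4.3 CPM in lung KO. Scgb1a1 went the other way, at 83.4 to 87.3 CPM in lung Wt and 60.4 to 63.9 CPM in lung KO. Myeloid markers (7 genes) summed to 20 to 41.5 CPM.

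Across the 8 libraries the members fell into those that tracked the family and those that did not. The mean log2 CPM of the 8 members correlated at a Pearson r of 0.97 with Gimap5, 0.948 with Gimap6, 0.948 with Gimap7, 0.777 with Gimap4 and 0.728 with Gimap9, each of which is part of that mean. The coefficient was -0.0361 for Gimap1, -0.306 for Gimap3 and -0.75 for Gimap8. Among pairs of members the coefficient ranged from -0.96 for Gimap4 with Gimap8 to 0.939 for Gimap5 with Gimap7. The 5 other genes whose levels were most like the family mean were Commd3 (0.991), Mdh1 (0.991), Eif3k (0.989), Anxa1 (0.986) and Spin2c (0.986). These coefficients describe 8 libraries in 4 groups and carry no test.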

How the data were processed

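RNA-seq was performed on sorted NK cells from lung and spleen of Wt and KO mice, 2 libraries per group. Reads of 50 bases (NEBNext Ultra kit, HiSeq2500) were aligned with HISAT2 2.1.0 to mm10/GRCm38, and the authors deposited raw read counts per gene symbol from HTSeq (version 0.11.1 in the submitters' processing notes) as 1 table per library; the gene annotation and the strand setting are not given in the sources used here. HTSeq's summary lines, such as reads in no gene, were left out of library sizes and tests.

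The counts were analysed in edgeR 4.0.16 (R 4.3.3). Genes were filtered with filterByExpr over groups (12595 of 48321 kept), scaled by TMM and fitted with 1 mean per group over all 8 libraries, and contrasts were tested with glmQLFTest and Benjamini-Hochberg adjustment over all tested genes. A call is an adjusted p under 0.05, and a second rule adds a 1.5-fold difference. With 2 libraries against 2, an exact permutation test cannot go below p = 0.333, so a single value was not tested that way. CPM used TMM scaling, and RPKM used exon lengths from GENCODE M21 (46394 symbols matched). Intervals and detection limits cover counting error and the spread between these libraries only. The members, the gene lists and the alternatives were chosen with earlier results of these data known. All 8 members and Ccl5 are named; of each list, the 3 genes with the smallest p per KO comparison; of the cluster's flanks, all tested genes; and the 5 genes most like the family mean. Of the fits, only the main one was run on simulated counts, and only for the KO comparisons in lung and in spleen. Those counts were drawn with the spread estimated from these libraries, so they cannot show whether that spread is right. The fits with an assumed spread of 0.1 and with the GC trend and replicate block together were added after seeing the data. Libraries with equal replicate numbers share only a number, and libraries of a group differed by more than sampling noise (chi-square per degree of freedom 1.2 to 1.42). In the list of lymphocyte quiescence and trafficking, 1 gene was counted but its own values are not reported here.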

Additional observations from a re-analysis of the deposited data

Results flagged for a closer look

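A difference of the KO effect between lung and spleen, tested as an interaction by the edgeR quasi-likelihood F-test (Benjamini-Hochberg adjusted), was found for 7 of the 8 Gimap genes. On the log2 scale, lung minus spleen, it was -0.94 for Gimap7, -0.82 for Gimap9, -0.60 for Gimap6, -0.32 for Gimap5 and -0.13 for Gimap4, and 0.62 for Gimap3 and 0.32 for Gimap1. The Gimap4 call was kept in 8 of 17 alternatives, those with an assumed spread left aside, and its sign turned with library totals (0.04) and with the trend with GC content removed (0.07). Gimap1 turned to -0.15 with that trend removed, and Gimap5 lost its call with library totals (-0.16). The same test called 61.6% of all tested genes.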

How the results depend on the processing

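Gimap3, Gimap7 and Gimap9 kept their direction and call in lung, in spleen and in the difference between organs under all 18, 18 and 17 alternatives that did not assume a larger spread, with ranges of 0.27 to 0.45, -0.55 to -0.44 and -0.42 to -0.29 in lung. Gimap6 did so except in lung with library totals. Over all members and comparisons, 687 of 792 recomputed values kept direction and call. With the sign kept, 80 lost the call and 4 gained one. The other 21 changed sign, some of them with a call gained or lost as well.

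The calls depend on the spread, which between these libraries was a coefficient of variation of 2.5%. With an assumed coefficient of variation of 0.2, 0 members were called in lung, in spleen, in the difference between organs and between organs in Wt, with 0 at 1.5-fold in the difference, and 1 was called and at 1.5-fold between organs in KO; the genes called were 1557, 1144, 2017, 2011 and 2316. With 0.1, 3 members were called in lung, 3 in spleen and 2 between organs in Wt, beside 4395, 4112 and 4673 of the 12595 tested genes. In the difference 4 members were called with 0.1, and no count of all genes is given here to set beside them. DESeq2 called 4507 genes in lung and 4165 in spleen. Leaving out 1 library gave 4448 (without spleen KO replicate 2) to 7493 genes in spleen, and 1 to 2 members at 1.5-fold between organs in KO; that count was also 1 with library totals, with the GC trend removed, with that and the replicate block, and with at least 10 counts in every library. In the difference between organs, 2 members were at 1.5-fold with the GC trend removed, with or without the replicate block.

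With the GC trend removed, without and with the replicate block, Gimap1 turned to -0.18 and -0.18 in lung, -0.15 and -0.15 in the difference and -0.23 and -0.24 between organs in KO, and Gimap4 to 0.071 and 0.074 in the difference (0.035 with library totals). Between organs in Wt, where Gimap5 and Gimap6 were near 0, Gimap5 was at -0.10 with library totals, -0.0031 without a filter, -0.0065 and -0.0054 with assumed coefficients of 0.2 and 0.1, -0.0060 with the replicate block and -0.066 to 0.040 with 1 library left out, and Gimap6 at -0.098 with library totals and -0.0079 to 0.047 with 1 library left out. The cause of these changes was not tested. Library totals shifted the median of all genes by 0.16 in the difference and by -0.107 between organs in Wt, and the share of higher calls from 52.5% to 63.3% in lung, 52.9% to 63.5% in the difference and 48.6% to 36.9% between organs in Wt.

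The replicate block called 7, 8, 7, 6 and 7 members in the 5 comparisons, as without it, and changed no member's call. It called 6977, 7185, 7764, 7135 and 8200 of the 12595 tested genes. Same-numbered Wt and KO libraries correlated at -0.0139 (lung) and 0.169 (spleen). Same-numbered lung and spleen libraries correlated at 0.00447 (Wt) and -0.0758 (KO). Equal numbers were therefore not taken as pairs. By CPM in place of RPKM, Gimap6, Gimap4, Gimap3 and Gimap9 ranked 1, 2, 3 and 4.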
